A study of Mus musculus with 24 samples.

Results

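The lysosomal cathepsins are the acid proteases that digest proteins inside lysosomes, and the 10 genes followed here are Ctsa, Ctsb, Ctsc, Ctsd, Ctsh, Ctsk, Ctsl, Ctss, Ctsz and Lgmn. They were chosen by gene symbol, with reads summed over each gene's transcripts, and make up 10 of the 53392 genes quantified. The tissue was kidney of FVB mice. The groups were ischemic acute kidney injury (IRI) or sham controls, labelled as without injury, in males and in females. From each, proximal tubules (PTs) were microdissected after enzymatic digestion, and endothelial cells (endo) were captured with microbeads against CD31, a surface protein of endothelial cells. Each group held 3 libraries, except sham female endothelial cells with 2, so the 8 groups give 12 tubule and 11 endothelial libraries. The p-values below measure the spread between these libraries. The age of the mice and the time after injury are not given in the sources used here.

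Proximal tubule cells take up filtered protein through megalin and cubilin and pass it to lysosomes, where cathepsins cut it. The family covers different chemistries. Ctsl, Ctsb, Ctss and Ctsk encode cysteine proteases that cut within protein chains, and cathepsin B also trims pairs of residues from the carboxyl end. Ctsc, Ctsh and Ctsz encode cysteine proteases that work mainly from chain ends: cathepsin C removes dipeptides from the amino end and activates granule proteases of leukocytes, cathepsin H is an aminopeptidase, and cathepsin Z is a carboxypeptidase. Lgmn encodes legumain, an asparagine-specific endopeptidase abundant in kidney that also processes cathepsins and is counted with them here. Ctsd encodes the aspartic protease cathepsin D, and Ctsa a serine carboxypeptidase that shields the lysosomal enzymes encoded by Glb1 and Neu1. Cathepsin S is best known from antigen-presenting cells and cathepsin K from osteoclasts.

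The depth ran from 32592517 to 54906972 estimated reads per library. Levels below are CPM, read counts scaled to the library's normalized total, unless TPM, a level per transcript length, is named. CPM was scaled within each isolation unless the joint scaling of both is named. Xist averaged at most 0.17 CPM in the male groups and at least 60.6 CPM in the female ones, which fits the labelled sexes. The injury genes Havcr1 and Lcn2 averaged 204 ± 150 and 394 ± 180 CPM in injured male tubules, against 4.19 ± 0.95 and 2.51 ± 2.39 CPM in sham male tubules (SD, n = 3). In injured female tubules Havcr1 averaged 13.7 ± 10.8 CPM, against 1.80 ± 0.59 CPM in sham female tubules (SD, n = 3).

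The endothelial isolates held much tubule RNA. Their 11 endothelial markers summed to 539 to 2271 CPM, against 168 to 459 CPM in tubules, while their 13 proximal tubule markers summed to 11730 to 35170 CPM, against 13340 to 38400 CPM in tubules. Markers of thick ascending limb and distal tubule summed to 8400 to 16290 CPM in endothelial isolates and 1582 to 7325 CPM in tubules, those of podocytes to 724 to 1723 CPM in endothelial isolates and 19.6 to 380 CPM in tubules, and those of collecting duct to 234 to 1062 CPM in endothelial isolates and 73.9 to 1125 CPM in tubules. Fibroblast and mural markers summed to 82.3 to 206 CPM in endothelial isolates and 24.6 to 269 CPM in tubules, macrophage and dendritic cell markers to 103 to 616 CPM in endothelial isolates and 41.8 to 442 CPM in tubules, and neutrophil markers to 2.73 to 120 CPM in endothelial isolates and 1.20 to 33.3 CPM in tubules. Lymphocyte markers reached 4.05 to 19.3 CPM in endothelial isolates and 0.58 to 5.26 CPM in tubules. Mast cell markers summed to 12.6 to 29.6 CPM in endothelial isolates and 2.70 to 39.6 CPM in tubules, with the mast cell genes Cma1, Cpa3, Fcer1a, Mcpt4 and Tpsb2 at 0 in both sham tubule groups. Markers of bone-resorbing cells summed to 55.3 to 144 CPM in endothelial isolates and 83.6 to 121 CPM in tubules, nearly all of it Acp5, itself a lysosomal enzyme.

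A pair of libraries stood apart from their groups on tubule or endothelial markers. Injured male tubule replicate 3 held 13340 CPM of proximal tubule markers, against 30070 and 27910 CPM in replicates 1 and 2. Sham male endothelial replicate 3 held 2073 CPM of endothelial and 18490 CPM of proximal tubule markers, against 539 and 549 CPM of endothelial and 35130 and 35170 CPM of proximal tubule markers in replicates 1 and 2. Where a member's call changed without either of this pair, the value without it is given. The sham endothelial library was left out only of comparisons that include its group. Injured male endothelial replicate 2 held 120 CPM of neutrophil markers, against 12.8 and 14.9 CPM in replicates 1 and 3.

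Short stretches of promoter sequence show which members carry the E-box CACGTG, the core of the element bound by TFEB, a transcription factor of lysosomal genes. RefSeq promoter windows of 250 bases before the gene start (GRCm38.p6) were found for 8 of the 10 members, leaving Ctsb and Ctsh. The E-box, which reads the same on both strands, was in windows of Ctsa, Ctsd, Ctsl and Lgmn (4 of the members' 10 windows), against 6.02% of 32851 windows of all genes. The stretches are on chr13:64370739-64370768 (minus strand) for Ctsl, chr7:142388048-142388077 and chr7:142387908-142387937 (minus strand) for the distal and the proximal site of Ctsd, chr12:102439124-102439153 (minus strand) for Lgmn and chr2:164833743-164833772 (plus strand) for Ctsa, with the E-box in capitals.
Ctsl, E-box 236 to 231 bases before the RefSeq start: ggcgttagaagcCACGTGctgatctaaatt
Ctsd, E-box 245 to 240 bases before: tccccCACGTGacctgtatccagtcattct
Ctsd, E-box 98 to 93 bases before: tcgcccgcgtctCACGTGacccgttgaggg
Lgmn, E-box 49 to 44 bases before: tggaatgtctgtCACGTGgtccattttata
Ctsa, E-box 12 to 7 bases before: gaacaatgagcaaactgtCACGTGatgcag
The RefSeq starts used for these 4 genes lie within the GENCODE genes, and the stretches of Ctsl (in part), Ctsa and the proximal site of Ctsd lie in annotated exons. The longer palindrome TCACGTGA was in windows of Ctsa and Ctsd and in 0.785% of all windows. The full CLEAR element, a longer palindrome around the same core found in 0.24% of all windows, was in none of the members' windows.

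Ctsc and Ctsz are shown whole because both passed the test in injured male tubules and neither holds an E-box. Their windows are chr7:88277835-88278084 (plus strand) and chr2:174439040-174439289 (minus strand), outside annotated exons, with GC boxes (GGGCGG on either strand) and the CCAAT box in capitals.
Ctsc: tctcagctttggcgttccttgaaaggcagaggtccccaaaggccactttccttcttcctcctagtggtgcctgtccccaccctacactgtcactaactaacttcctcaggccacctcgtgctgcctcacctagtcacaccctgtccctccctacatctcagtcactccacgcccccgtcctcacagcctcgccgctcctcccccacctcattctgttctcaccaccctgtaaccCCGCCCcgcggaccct
Ctsz: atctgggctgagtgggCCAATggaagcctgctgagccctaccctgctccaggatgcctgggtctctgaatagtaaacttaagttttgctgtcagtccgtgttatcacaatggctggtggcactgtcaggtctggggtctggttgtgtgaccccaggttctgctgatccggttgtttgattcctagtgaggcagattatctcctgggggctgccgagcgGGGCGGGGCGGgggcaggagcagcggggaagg
Ctsc holds 1 GC box, and Ctsz 2 that overlap by 1 base. Windows of Ctsd, Ctss and Lgmn hold GC boxes too, and 32.7% of all windows do. The CCAAT box (both strands searched) was in windows of Ctsz and Lgmn and in 33.8% of all. The AP-1 site TGANTCA, in 6.75% of all windows, was in none of the members' windows. The interferon-stimulated element was found in Ctss (2.98% of all windows) and the STAT site TTCNNNGAA in Ctsc (7.02%), each searched on both strands.

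Per transcript length, Lgmn was the most abundant member in 6 of the 8 groups, and Ctsl in the other 2, the injured male ones. Ctsl averaged 1172 ± 605 TPM in injured male tubules, against 157 ± 15.3 TPM in sham male tubules, and 805 ± 278 TPM in injured male endothelial isolates, against 194 ± 1.64 TPM in sham male ones (SD, n = 3). In females Ctsl averaged 231 ± 24.8 TPM in injured tubules, against 241 ± 20.7 TPM in sham tubules (SD, n = 3). Lgmn averaged 422 ± 173 TPM in injured and 294 ± 43.1 TPM in sham male tubules, and 434 ± 60.3 TPM in injured and 434 ± 13.1 TPM in sham female tubules (SD, n = 3). At the top of injured female tubules Lgmn stood above Ctsb (269 ± 41.1 TPM), while Ctsb and Ctsl, next in order, lay within their spread.

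Below the top, Ctsa, Ctsb and Ctsd shared ranks 2 to 5 with Ctsl and Lgmn, and in sham male tubules Ctsa (166 ± 16.5 TPM) and Ctsl (157 ± 15.3 TPM) lay within their spread, as did Ctsd (123 ± 13.3 TPM) and Ctsb (117 ± 7.21 TPM) below them (SD, n = 3). Ctsh was sixth, at 68.7 to 108 TPM over the 8 group means, Ctsz seventh at 51.1 to 74.1 TPM and Ctsc eighth at 2.87 to 37.7 TPM, in every group. Ctss, at 1.20 to 8.64 TPM, and Ctsk, at 0.067 to 0.50 TPM, were last in every group. Ctsk rested on 21 to 101 estimated reads in endothelial libraries and 0 to 52 in tubule ones, a depth at which a fold change is poorly determined.

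Summed over the 10 genes, cathepsin transcripts stood at 2423 ± 392 TPM in injured and 1009 ± 72.7 TPM in sham male tubules, and at 1472 ± 146 TPM in injured and 1349 ± 60.6 TPM in sham female tubules (SD, n = 3). Endothelial isolates held 2223 ± 95.6 TPM in injured and 1185 ± 156 TPM in sham males (SD, n = 3), and 1608 ± 151 TPM (n = 3) in injured and 1198 ± 48.0 TPM (n = 2) in sham females. Ctsl supplied 47.2% of the sum in injured male tubules (25.1 to 61.6% over 3 libraries), against 15.6% in sham male tubules, and 36.6% in injured male endothelial isolates (27.9 to 52.8%), against 16.6% in sham ones. In the 4 female groups its share was 15.7 to 18.4%. The share of Lgmn was 17.8% in injured and 29.0% in sham male tubules.

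**Figure D1:**
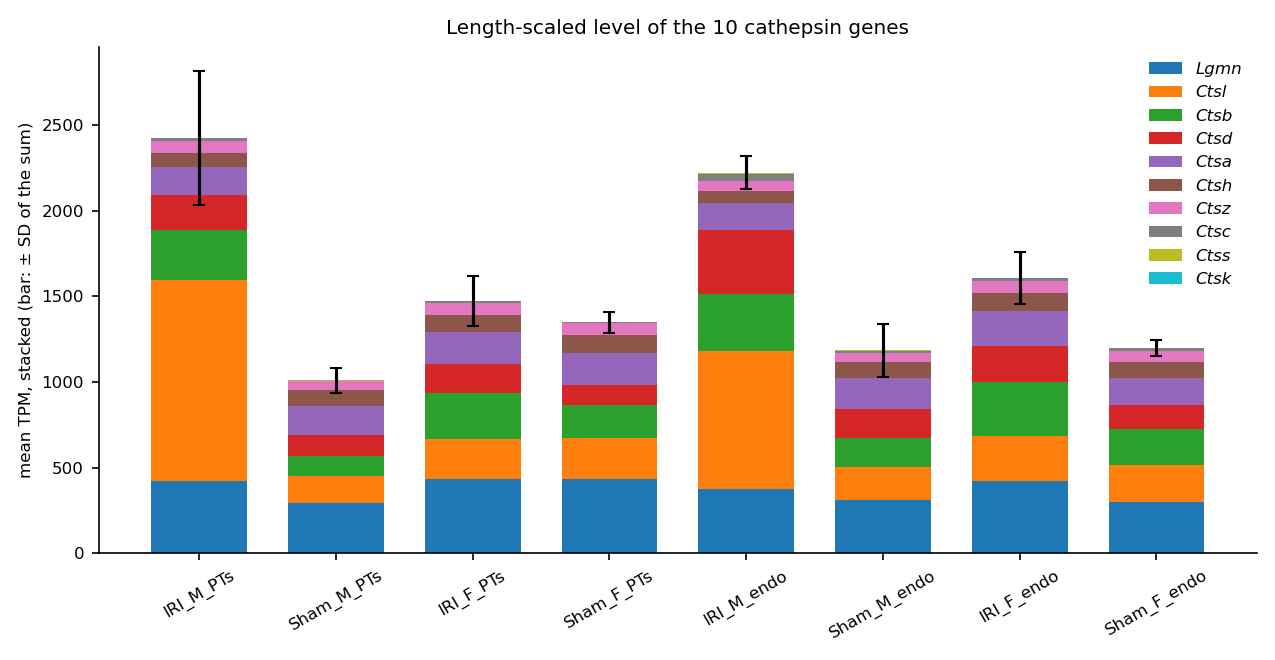
Summed level of the 10 genes per group in TPM, stacked by gene (vertical axis from 0; bars ± SD of the sum), with the injured group left of its sham group. The injured male tubules and injured male endothelial isolates reach 2423 and 2223 TPM, with Ctsl the largest block in both; the other 6 groups lie between 1009 and 1608 TPM.

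Of the 10 members, 6 rose in injured male tubules and none fell, beside 10.6% of the 18369 genes tested that rose and 8.43% that fell (19% in all). The 6 were Ctsl, Ctsb, Ctsc, Ctsd, Lgmn and Ctsz, and the median log2 change of the 10 was 0.62, against -0.03 for all genes. A gene passed at an adjusted p under 0.05 in edgeR's quasi-likelihood test, with Benjamini-Hochberg adjustment across every gene in the fit, and log2 changes are given ± SE. For 5 of the 10 every injured library was above every sham library in CPM, which held for 14.1% of all genes. Another 16.7% were lower in the same sense (30.8% in all). In TPM Ctsl, Ctsb, Ctsd and Ctsc did not overlap, but Ctsz and Lgmn did. The share of all genes was counted in CPM only. In such bulk samples fewer cells of a type and less RNA per cell cannot be told apart.

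Ctsl, the gene of the broad lysosomal endopeptidase cathepsin L, changed most among the 6. It had 3013, 2202 and 658 CPM in the 3 injured male tubule libraries, against 229, 244 and 216 CPM in the sham ones. Injured replicate 3 was the lowest of its group and still above every sham library. The log2 change was 3.09 ± 0.41, or 8.52-fold (adjusted p = 0.00149). Without replicate 3 it was 3.50 ± 0.13 (adjusted p = 1.3e-07).

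Ctsb had 998, 1031 and 1226 CPM in injured male tubules, against 420, 434 and 477 CPM in sham male tubules. The groups were far apart and each was narrow, with a log2 change of 1.29 ± 0.13, or 2.44-fold (adjusted p = 0.000299). Cathepsin B stayed past the threshold in each of the 14 alternative analyses run, with an adjusted p of at most 0.0416. Ctsl and Ctsd each lost the call in only 1 of them, a fit of the compared groups alone, with adjusted p = 0.0509 for Ctsl and 0.0844 for Ctsd. In that fit Ctsb was the only member to pass, and without sham male replicate 2 or 3 in the fit of all tubules 3 members passed. Without injured male replicate 3, the same 6 members passed, with Ctsb at 1.19 ± 0.10, Ctsd at 0.78 ± 0.12, Ctsz at 0.31 ± 0.08 and Lgmn at 0.36 ± 0.12. More of all genes passed there too: 3853 of 19309 rose and 4350 fell.

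Among the members that work from chain ends, Ctsc had 83.9, 88.0 and 17.1 CPM in injured male tubules, against 20.7, 9.40 and 5.79 CPM in sham male tubules. Injured replicate 3 lay below sham replicate 1 in CPM, so Ctsc overlapped on that scale although it passed the test, with a log2 change of 2.40 ± 0.57 (adjusted p = 0.0178). Without replicate 3 the change was 2.84 ± 0.40 (adjusted p = 0.000181), and without either other injured library the call was lost (adjusted p = 0.0626 and 0.0718). Ctsz, the carboxypeptidase, had 168, 173 and 201 CPM in injured and 132, 135 and 145 CPM in sham male tubules. Its libraries did not overlap, at a log2 change of 0.40 ± 0.11 (adjusted p = 0.0282). Ctsh, the aminopeptidase, had 133, 129 and 78.6 CPM in injured and 113, 114 and 128 CPM in sham male tubules, which overlapped, and did not pass (log2 change -0.06 ± 0.17, adjusted p = 0.844).

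Lgmn had 1399, 1226 and 1737 CPM in injured male tubules, against 916, 1134 and 1025 CPM in sham male tubules, with no overlap. In TPM the Lgmn libraries overlapped, at 288 to 617 TPM in injured and 252 to 338 TPM in sham male tubules. Legumain rose by a log2 change of 0.50 ± 0.15 (adjusted p = 0.0348), a smaller step than Ctsl or Ctsb. Ctsz and Lgmn each lost the call in 7 of the 14 alternatives, with adjusted p up to 0.16. Ctsd, the aspartic protease, had 749, 853 and 718 CPM in injured and 521, 475 and 405 CPM in sham male tubules, again without overlap (log2 change 0.73 ± 0.13, adjusted p = 0.00526). Ctsa, the serine carboxypeptidase, had 281, 260 and 300 CPM in injured and 279, 304 and 300 CPM in sham male tubules. These values overlapped, and the log2 change was -0.07 ± 0.10 (adjusted p = 0.668).

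Ctss and Ctsk, the members best known from immune cells and bone, did not pass in male tubules. Ctss had 4.60, 5.81 and 2.07 CPM in injured and 3.53, 2.45 and 3.16 CPM in sham male tubules, which overlapped (log2 change 0.45 ± 0.43, adjusted p = 0.494). Ctsk had 0.82, 0.62 and 0.19 CPM in injured and 0.25, 0.17 and 0.13 CPM in sham male tubules (log2 change 1.56 ± 1.04, adjusted p = 0.306).

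Marker levels moved beside these changes. The 13 proximal tubule markers summed to 30070, 27910 and 13340 CPM in injured and 36880, 38400 and 37760 CPM in sham male tubules. Thick ascending limb and distal markers summed to 5128, 5175 and 2019 CPM in injured and 3284, 1949 and 1582 CPM in sham male tubules. Of the 8 neutrophil markers 6 were tested and 4 rose, with sums of 33.3, 20.1 and 4.82 CPM in injured and 1.42, 1.86 and 2.28 CPM in sham male tubules. Macrophage and dendritic cell markers summed to 343, 283 and 156 CPM in injured and 442, 222 and 317 CPM in sham male tubules, with Cd14 higher and Cd74 lower among the 15 tested. The part of these cells in the cathepsin changes was not tested.

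**Figure D2:**
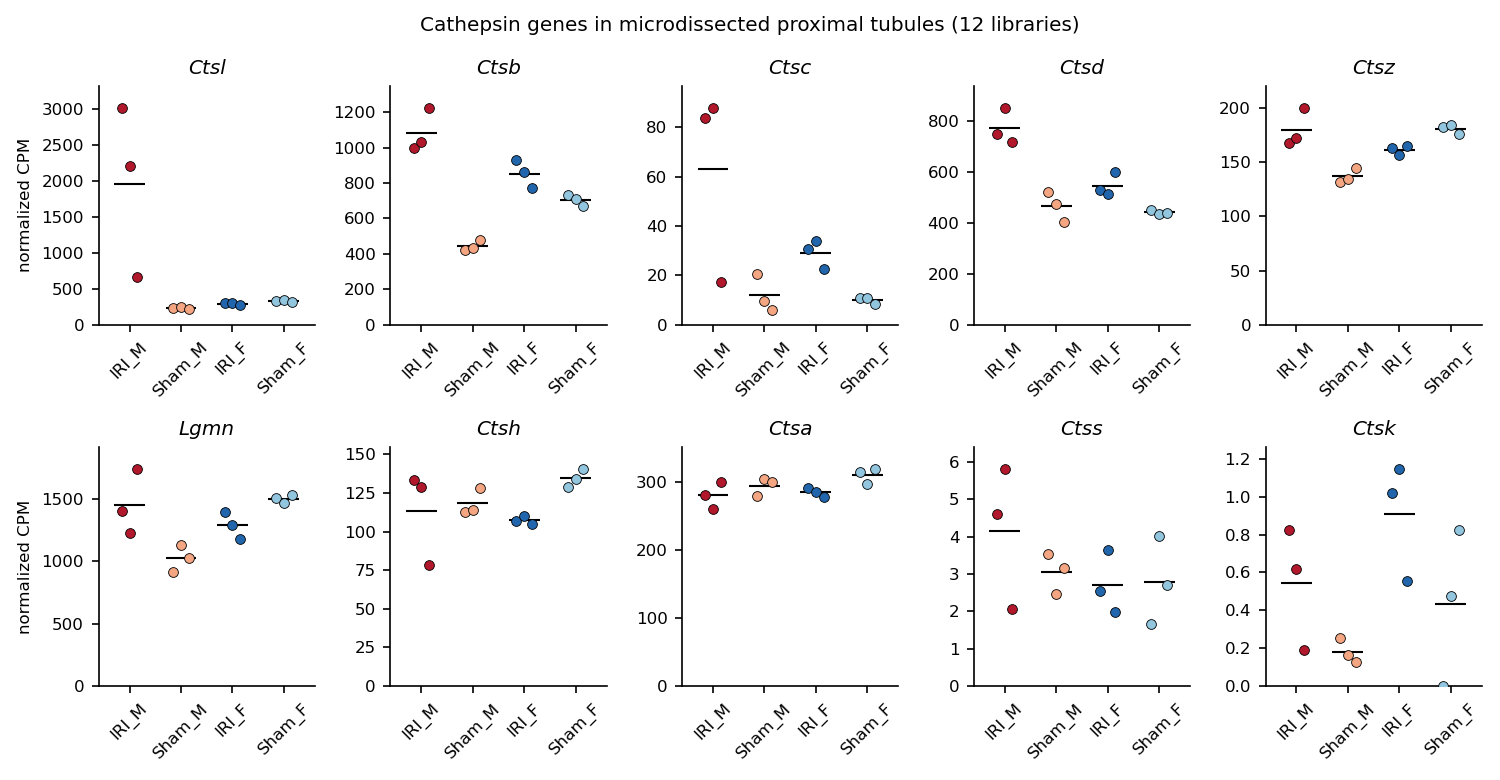
CPM of each of the 10 genes in the 12 tubule libraries (points, with a line at the group mean; vertical axes from 0, scaled per gene), with injured groups left of their sham groups. The 3 injured male libraries lie above all sham male libraries for Ctsl, Ctsb, Ctsd, Ctsz and Lgmn, and Ctsl in injured males ranges from 658 to 3013 CPM.

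No member passed the test in injured female tubules, where 0.0109% of all genes tested (2 of 18369) did so and 2032 genes had an unadjusted p under 0.05. Yet for 8 of the 10 members the injured and sham female libraries did not overlap, which held for 27.1% of all genes. Ctsb, Ctsc and Ctsd were higher in all 3 injured libraries, and Ctsa, Ctsh, Ctsl, Ctsz and Lgmn lower. The lower ones depended on the scale. In TPM Ctsb, Ctsc and Ctsd again did not overlap, but Ctsa, Ctsh, Ctsl, Ctsz and Lgmn did. Lgmn had 373 to 493 TPM in injured and 423 to 449 TPM in sham female tubules. Higher without overlap were 15.3% of all genes, and lower without overlap 11.8%.

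The steps were small but for Ctsc, which had 30.7, 33.7 and 22.6 CPM in injured female tubules, against 10.7, 10.9 and 8.41 CPM in sham female tubules. This clear gap gave a log2 change of 1.54 ± 0.56 (adjusted p = 0.298), and an adjusted p of 0.00272 in a fit of the 2 female groups alone. Ctsb had 929, 863 and 770 CPM in injured and 733, 711 and 671 CPM in sham female tubules (log2 change 0.28 ± 0.12, adjusted p = 0.442). Injured and sham females thus lay close for cathepsin B, above every sham male library, which had at most 477 CPM.

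Ctsl had 305, 303 and 268 CPM in injured female tubules, against 331, 339 and 319 CPM in sham female tubules. The injured values were the lower ones, by a log2 change of -0.17 ± 0.38 (adjusted p = 0.962). Ctsh had 107, 110 and 105 CPM in injured and 129, 134 and 140 CPM in sham female tubules (log2 change -0.33 ± 0.17, adjusted p = 0.553). In the fit of the 2 female groups alone Ctsh fell (adjusted p = 0.0257). Lgmn had 1391, 1294 and 1178 CPM in injured and 1506, 1463 and 1532 CPM in sham female tubules, again lower in CPM in every injured library (log2 change -0.22 ± 0.15, adjusted p = 0.676). In TPM the Lgmn libraries overlapped, with a mean of 434 TPM in both groups. Ctsd (log2 change 0.31 ± 0.13), Ctsz (-0.16 ± 0.11) and Ctsa (-0.12 ± 0.10) did not pass either.

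In these tubules the proximal markers summed to 15090 to 17510 CPM in injured and 19040 to 23100 CPM in sham females. Thick ascending limb and distal markers summed to 6122, 7325 and 5661 CPM in injured and 1856, 2222 and 2113 CPM in sham female tubules, and collecting duct markers to 630 to 852 CPM in injured and 73.9 to 199 CPM in sham ones. Their part in the female values was not tested.

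Ctsl and Ctsb responded more in male than in female tubules, by the test of the difference itself. The injury gene Havcr1 also averaged higher in injured male than in injured female tubules, as given above. The part of the extent of injury in these differences was not tested. The log2 response of Ctsl in males exceeded that in females by 3.26 ± 0.55 (adjusted p = 0.0273), and that of Ctsb by 1.01 ± 0.18 (adjusted p = 0.0321). Of all genes 0.381% had a response higher in males by this test and 0.474% a lower one (0.855% in all). Ctsz (0.56 ± 0.15, adjusted p = 0.0966), Lgmn (0.73 ± 0.21, adjusted p = 0.109) and Ctsd (0.42 ± 0.18, adjusted p = 0.228) did not pass, and neither did Ctsc (0.86 ± 0.77, adjusted p = 0.551). The difference was positive for all 10 members, with a median of 0.53, against -0.09 for all genes.

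These calls depend on the libraries in the fit. With any of 9 of the 12 libraries left out Ctsl lost the call, at log2 differences of 3.17 to 3.31 and adjusted p of 0.0619 to 0.0953, and Ctsb lost it with the same 9 left out, at adjusted p of 0.0683 to 0.102. Without injured male replicate 3, 5 members passed instead, and with them 2546 of 19309 genes in that direction: Ctsl (3.68 ± 0.18), Ctsb (0.91 ± 0.14), Lgmn (0.57 ± 0.16), Ctsz (0.47 ± 0.11) and Ctsh (0.47 ± 0.12).

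**Figure D3:**
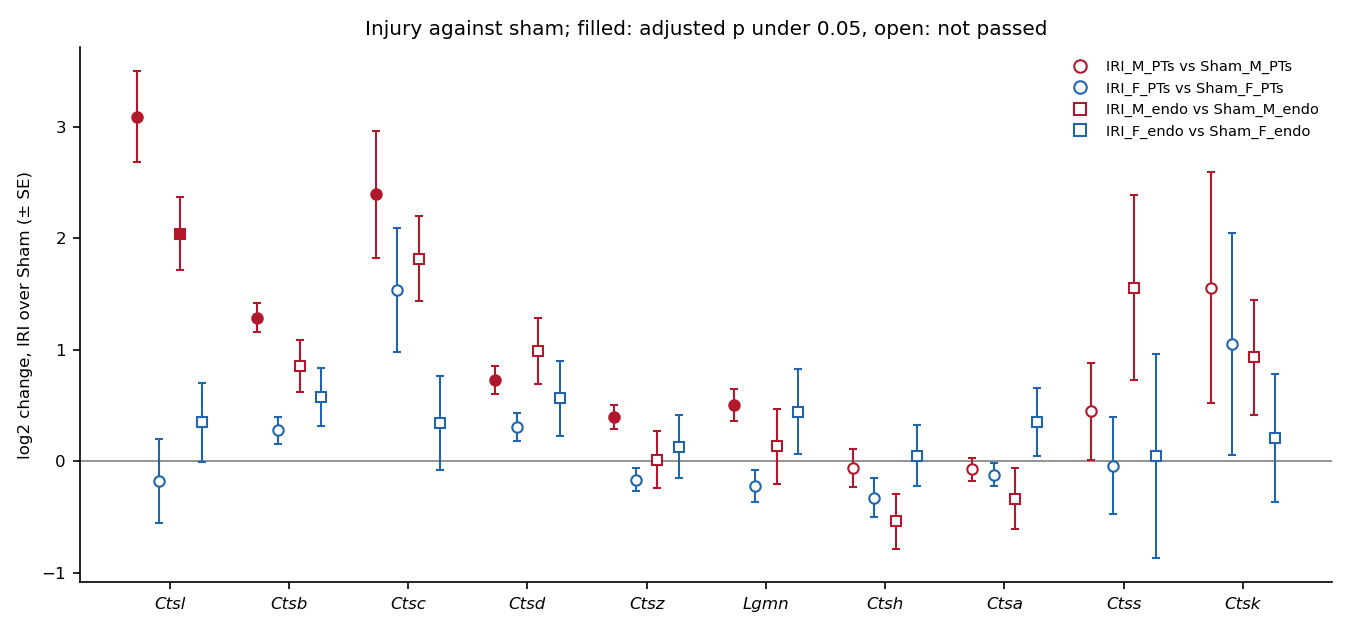
Log2 change, injured over sham (vertical axis; points ± SE, filled where the adjusted p was under 0.05), of the 10 genes in males and in females, in tubules and in endothelial isolates. Ctsl stands at 3.09 in male tubules and -0.17 in female tubules, and at 2.04 and 0.35 in male and female endothelial isolates.

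In sham tubules 2 members were lower in males than in females and none higher, beside 2.56% of all genes lower and 3.24% higher (5.8% in all). Libraries of the sexes did not overlap for 5 members, all lower in males, against 29.8% of all genes (14.6% lower in males). Ctsb, at the 420, 434 and 477 CPM given above for sham males against 733, 711 and 671 CPM in sham females, fell by 0.67 ± 0.12 on the log2 scale (adjusted p = 0.00874). Lgmn had 916, 1134 and 1025 CPM in sham male and 1506, 1463 and 1532 CPM in sham female tubules (log2 change -0.55 ± 0.15, adjusted p = 0.0493). Both gaps were free of overlap. Ctsz had 132, 135 and 145 CPM in sham male and 183, 184 and 177 CPM in sham female tubules and just missed the threshold (log2 change -0.40 ± 0.11, adjusted p = 0.0509). Ctsl was also lower in every sham male library (log2 change -0.52 ± 0.38, adjusted p = 0.529). This comparison, the injury comparison in males and the tubule response of males minus females share the sham male libraries. The call of Lgmn was lost in 10 of 15 alternatives and that of Ctsb without sham female replicate 2 or sham male replicate 1 (adjusted p = 0.0633 and 0.0535). Without injured male replicate 3, which is in neither of these groups but in the same fit, Ctsz and Ctsl passed as well (adjusted p = 0.00437 and 0.0141). Macrophage and dendritic cell markers summed to 442, 222 and 317 CPM in sham male and 41.8, 86.8 and 70.3 CPM in sham female tubules, and proximal tubule markers to 36880, 38400 and 37760 CPM in sham male and 23100, 20700 and 19040 CPM in sham female ones. Their part in the differences between the sexes was not tested.

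After injury 2 members were higher in males and none lower, beside 12.8% of all genes higher and 10.5% lower (23.3% in all). Ctsl had 3013, 2202 and 658 CPM in injured male tubules, against 305, 303 and 268 CPM in injured female tubules, a log2 change of 2.74 ± 0.40 (adjusted p = 0.00148). Ctsd had 749, 853 and 718 CPM in injured male and 528, 512 and 601 CPM in injured female tubules (log2 change 0.50 ± 0.13, adjusted p = 0.0181). Neither overlapped, and Ctsd lost the call in 4 of 12 alternatives, with adjusted p up to 0.0808. With Ctsb and Ctsz, 4 members were higher in CPM in all injured male libraries, against 17.6% of all genes (39.5% without overlap in either direction). In TPM Ctsl and Ctsd again did not overlap, but Ctsb and Ctsz did. Ctsb, with 998, 1031 and 1226 CPM in injured male and 929, 863 and 770 CPM in injured female tubules, did not pass (log2 change 0.35 ± 0.12, adjusted p = 0.0642). Nor did Ctsc (1.12 ± 0.55, adjusted p = 0.154), which passed without injured male replicate 3 (1.57 ± 0.39, adjusted p = 0.00669), as did Ctsh (0.29 ± 0.09, adjusted p = 0.0184). That comparison and the injury comparison in males share the injured male libraries. Macrophage and dendritic cell markers summed to 343, 283 and 156 CPM in injured male and 64.9, 96.5 and 61.0 CPM in injured female tubules, and neutrophil markers to 33.3, 20.1 and 4.82 CPM in injured male and 3.87, 2.53 and 1.20 CPM in injured female ones. Their part in these differences was not tested.

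In endothelial isolates of injured males Ctsl was the only member to pass, beside 0.537% of all 19910 genes tested that rose and 0.326% that fell (0.864% in all). It had 827, 1829 and 830 CPM in injured male endothelial isolates, against 336, 290 and 222 CPM in sham male ones. Every injured value was more than the highest sham value, with a log2 change of 2.04 ± 0.33, or 4.11-fold (adjusted p = 0.0229). The call was lost without sham male replicate 1 or 2 (adjusted p = 0.0937 and 0.127), and without sham male replicate 3 the change was 1.90 ± 0.36 (adjusted p = 0.0238). With any 1 library of these groups left out, the log2 change of Ctsl was 1.55 to 2.24.

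Ctsc, Ctsb and Ctsd also had no overlap but did not pass. Ctsc had 93.4, 214 and 76.9 CPM in injured and 31.2, 26.6 and 51.2 CPM in sham male endothelial isolates (log2 change 1.82 ± 0.39, adjusted p = 0.0553). Ctsb had 1172, 998 and 1241 CPM in injured and 759, 659 and 470 CPM in sham ones (0.85 ± 0.23, adjusted p = 0.109). Ctsd had 1547, 878 and 1368 CPM in injured and 793, 644 and 473 CPM in sham ones (0.99 ± 0.30, adjusted p = 0.148). So 4 of the 10 members were higher without overlap, against 8.81% of all genes, and 8.96% were lower (17.8% in all). Without sham male replicate 3 Ctsc passed (2.15 ± 0.42, adjusted p = 0.0257), and Ctsb (0.68 ± 0.21) and Ctsd (0.82 ± 0.31) did not.

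Ctss rested on a single sham library. It had 9.09, 32.4 and 17.4 CPM in injured male endothelial isolates, against 1.65, 1.27 and 17.1 CPM in sham ones. Sham replicate 3 reached the injured range, and with it the log2 change was 1.56 ± 0.83 (adjusted p = 0.402). Without it Ctss passed, at 3.75 ± 0.53 (adjusted p = 0.00871). Neutrophil markers summed to 12.8, 120 and 14.9 CPM in injured and 4.82, 3.60 and 5.43 CPM in sham male endothelial isolates, and macrophage and dendritic cell markers to 269, 533 and 318 CPM in injured and 300, 616 and 423 CPM in sham ones. Proximal tubule markers summed to 13680, 15050 and 11730 CPM in injured and 35130, 35170 and 18490 CPM in sham ones. The part of these cells in the endothelial values was not tested.

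The remaining members overlapped between injured and sham male endothelial isolates. Lgmn had 1119, 1048 and 1424 CPM in injured and 1495, 1213 and 566 CPM in sham ones, and Ctsh 88.5, 84.4 and 67.3 CPM in injured and 134, 140 and 74.7 CPM in sham ones. In both genes sham replicate 3 was the lowest sham library. Neither passed (adjusted p = 0.882 for Lgmn and 0.329 for Ctsh), and Ctsz, Ctsa and Ctsk did not either. Without sham replicate 3 the log2 change of Lgmn was -0.18 ± 0.25, against 0.13 with it, and that of Ctsz -0.17 ± 0.24, against 0.01 with it; neither passed.

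In female endothelial isolates no member and none of the 19910 genes tested passed (0%), and 475 genes had an unadjusted p under 0.05. Among other tools and settings up to 33 genes passed. Ctsb, Ctsc and Ctsd did not overlap in CPM, against 24.7% of all genes (12.7% higher). In TPM Ctsb and Ctsd again did not overlap, but Ctsc did. Ctsa, Ctsh, Ctsl and Lgmn were higher without overlap in TPM only, where the share of all genes was not counted. All 10 members had a positive log2 change, with a median of 0.35, against 0.01 for all genes. Ctsb had 985, 926 and 1232 CPM in injured and 631 and 776 CPM in sham female isolates, without overlap (log2 change 0.57 ± 0.26). Ctsd had 650, 553 and 980 CPM in injured and 465 and 520 CPM in sham ones (0.56 ± 0.33). Ctsl had 364, 300 and 397 CPM in injured and 251 and 304 CPM in sham ones, which overlapped (0.35 ± 0.36).

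Between the sexes, Ctsl was higher in injured male than in injured female endothelial isolates, at the male values of 827, 1829 and 830 CPM given above and 364, 300 and 397 CPM in females (log2 change 1.72 ± 0.32, adjusted p = 0.0261). It was the only member to pass, beside 0.663% of all genes higher and 0.834% lower (1.5% in all), and lost the call without any of the 3 injured female libraries (adjusted p = 0.0924 to 0.149). Ctsc, with 93.4, 214 and 76.9 CPM in males and 53.6, 40.4 and 41.2 CPM in females, did not overlap and did not pass (1.51 ± 0.38, adjusted p = 0.0901). Nor did Ctsl and Ctss, higher in males, and Ctsh, lower, overlap between the injured sexes, against 11.4% of all genes higher and 12.6% lower (24% in all). In sham endothelial isolates no member passed, beside 0.432% of all genes, and all 10 members overlapped in CPM between males and females, where 23.7% of all genes did not. In TPM Ctsb, Ctsl and Ctsz were lower and Ctsd higher in sham males, without overlap. The difference of the injury response between the sexes passed for no member and no gene in endothelial isolates (0%; 1294 genes at an unadjusted p under 0.05), with 1.69 ± 0.47 for Ctsl and 1.48 ± 0.56 for Ctsc (adjusted p = 0.738 for both). Macrophage and dendritic cell markers averaged 373 CPM in injured male and 133 CPM in injured female isolates, and 447 CPM in sham male and 129 CPM in sham female ones. Their part in the differences between the sexes was not tested.

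**Figure D4:**
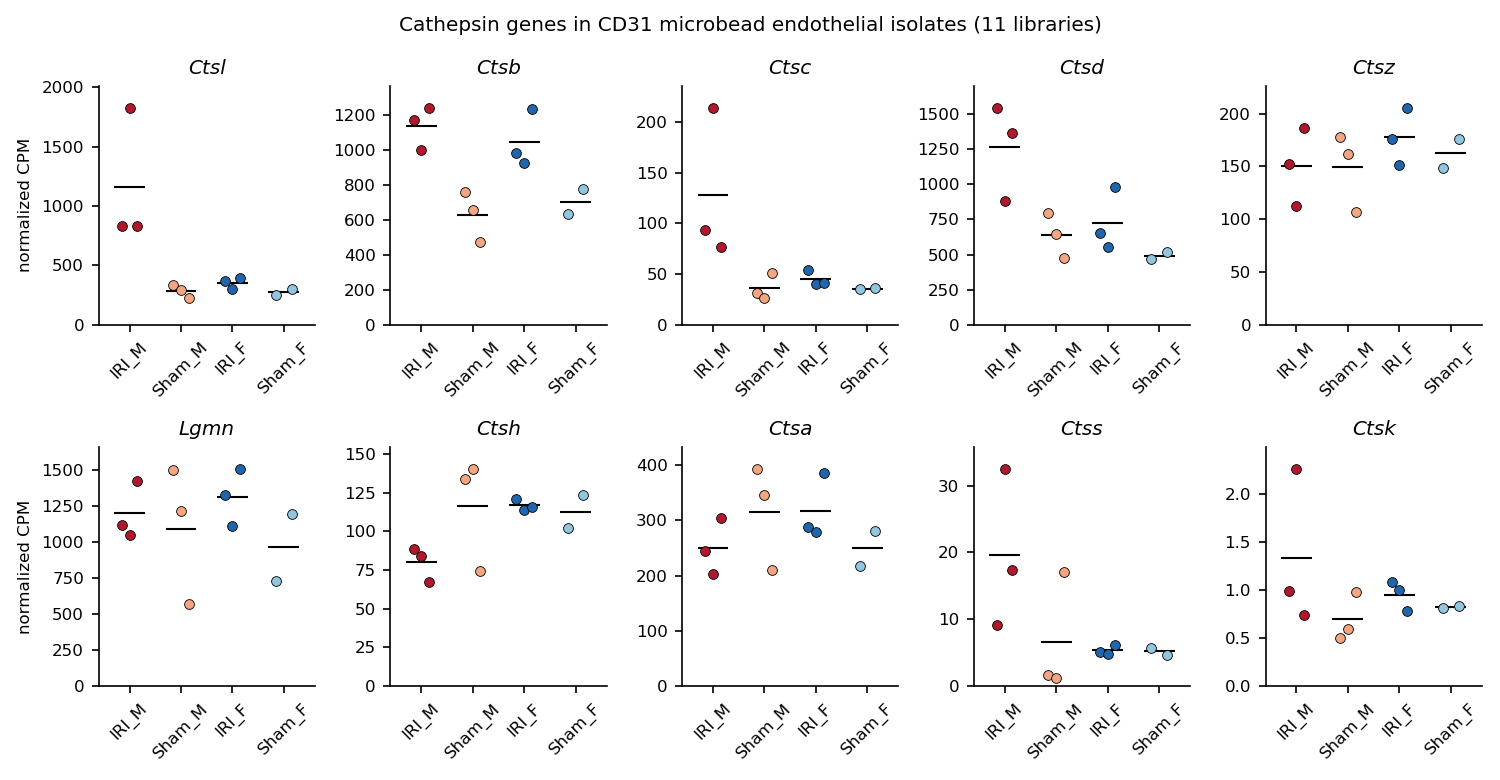
CPM of each of the 10 genes in the 11 endothelial libraries (points, with a line at the group mean; vertical axes from 0, scaled per gene), with injured groups left of their sham groups. Ctsl in injured males ranges from 827 to 1829 CPM, and Ctss in sham males has 1 library at 17.1 CPM and 2 at 1.27 and 1.65 CPM.

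Endothelial isolates were then set against tubules, with each library counted as separate. A tubule and an endothelial library of a group share a number in their titles, and the labels do not say whether it marks 1 mouse; if it does, the libraries are not independent. In sham kidneys, with equal weight to males and females, Ctsc was the only member that differed, higher in endothelial isolates by a log2 change of 1.59 ± 0.38, or 3.00-fold (adjusted p = 0.00797), beside 10.4% of 21206 genes tested that were higher and 1.86% lower (12.3% in all). On the joint scaling of both isolations, sham endothelial isolates had 24.7 to 50.3 CPM of Ctsc, against 6.03 to 21.9 CPM in sham tubules, with no overlap over 5 and 6 libraries. The share of all genes without overlap was not counted for this comparison. Ctsc passed in each of the 21 alternatives, at 1.58 ± 0.36 (adjusted p = 0.0204) with the title number as a block. Ctss, at 1.18 to 16.8 CPM in sham endothelial isolates and 1.73 to 4.19 CPM in sham tubules on that scaling, overlapped (0.90 ± 0.52, adjusted p = 0.312), and its difference was -0.25 without sham male endothelial replicate 3. After injury no member passed, beside 4.69% of all genes, with Ctss at 1.47 ± 0.50 (adjusted p = 0.106) and Ctsd at 0.42 ± 0.15 (adjusted p = 0.126). The injury response of endothelial isolates minus that of tubules passed for no member and no gene (0%; 1011 genes at an unadjusted p under 0.05), with -0.26 ± 0.37 for Ctsl and -0.89 ± 0.51 for Ctsc. The part of tubule RNA in the Ctsl values of endothelial isolates was not tested.

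The same transcript led a member's reads in all 23 libraries for 9 members, and in 22 for Ctss. Ctsb-201 held 75.0 to 78.7% of Ctsb reads in tubules and Ctsl-201 48.2 to 55.5% of Ctsl reads, injured male libraries included. The leading transcript of Ctsh in every library, Ctsh-202, is annotated as subject to nonsense-mediated decay. It held 49.9 to 61.3% of Ctsh reads in tubules, and transcripts not annotated as protein-coding held 55.0 to 67.7%. The Ctsh levels above count all of its transcripts.

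Some members overlap other genes, and whether counting used the strand is not given in the sources used here. Ctsd (GRCm38 chr7:142375911-142388038, minus strand) shares 808 of 2351 exon bases with Gm49369 on the same strand, which had 55.2 to 134 CPM in tubules, so the split of reads between them is uncertain. Ctsl (chr13:64359337-64370890, minus strand) shares 1742 exon bases with Gm47123 on the other strand, at 0 to 12.2 CPM in tubules, and 395 with Gm49230 on its own, at 0 to 0.10 CPM. Ctsb (chr14:63122462-63145923, plus strand) shares 774 with Fdft1 (9.68 to 26.7 CPM), and Ctsa (chr2:164832873-164841032, plus strand) 495 with Pltp and 324 with Neurl2, at most 5.59 CPM in tubules. Ctsz (chr2:174427493-174439039, minus strand) shares 10 bases with Nelfcd. No overlapping exon was found for Ctsc (chr7:88278085-88310888), Ctsh (chr9:90054152-90076089), Ctsk (chr3:95499256-95509362), Ctss (chr3:95526786-95556403) or Lgmn (chr12:102394084-102439813). Ctsk and Ctss lie next to each other on chromosome 3.

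Across the 12 tubule libraries, which share depth, isolation and group, the log2 CPM of Ctsl followed that of Xdh (xanthine dehydrogenase; Pearson r = 0.985), Tmcc3 (0.982) and Nfkb1 (0.982) most closely among 10092 genes. The genes nearest to Ctsb were Spp1, which encodes osteopontin (0.964), Tmpo (0.949) and Psat1 (0.947). Ctsd was nearest to the injury gene Lcn2 (0.977), Ybx3 (0.969) and Arpc1b (0.965), and Ctsc to Sh3bp4 (0.990), Rasd1 (0.986) and Sowahc (0.983). Ctsz and Lgmn had each other among their 3 nearest genes (0.902), beside Spns2 (0.934) and Vps25 (0.895) for Ctsz and Tcaf1 and Gyg (0.859 each) for Lgmn. Ctsa was nearest to Rbm26 (0.869), Dpp7 (0.868) and Zfp462 (0.854), and Ctsh to Ndfip1 (0.962), Rnf167 (0.961) and Cyba (0.916). For the low genes Ctss and Ctsk the nearest were Sdf4 (0.902) and Rgcc (0.914).

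Across the 11 endothelial libraries and 10675 genes, Ctsl followed Tpm3 (0.996), Krt8 (0.979) and Ywhah (0.979), and Ctsc followed Stat3 (0.985), Ampd3 (0.983) and Rbm3 (0.983). Ctss followed Il1b (0.977), Cybb (0.971) and Plek (0.962), genes known from leukocytes. Ctsb was nearest to Dap and Steap1 (0.959 each), Ctsh to Gstz1 (0.971), Ctsa to Wbp2 (0.976), Ctsk to Cry1 (0.975), Ctsz to Sh3yl1 (0.953) and Lgmn to Gm20716 (0.929). Between members, the highest r was 0.908 for Ctsc with Ctsl in endothelial isolates, and the lowest was -0.887 for Ctsh with Ctss there and -0.812 for Ctsa with Ctsc in tubules.

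In injured male tubules 10.6% of all genes rose and 8.43% fell. Of the cathepsin inhibitor list, which holds cystatin and serpin genes, 4 of 7 tested genes rose and none fell, with a median log2 change of 2.02. Cstb, which encodes the cytosolic cysteine protease inhibitor cystatin B, had 179 ± 41.0 CPM in injured and 44.2 ± 3.79 CPM in sham male tubules (SD, n = 3; log2 change 2.02 ± 0.17, adjusted p = 0.000176) and passed in each of 14 alternatives. The serpin genes Serpina3n (6.38 ± 1.12), Serpinb6a (1.91 ± 0.37) and Serpinb1a (2.39 ± 0.58) also rose. Cst3, the gene of the secreted inhibitor cystatin C, did not pass (0.73 ± 0.28, adjusted p = 0.0832). In injured female tubules Cstb had 61.3 ± 5.60 CPM, against 57.8 ± 6.31 CPM in sham ones (SD, n = 3; 0.08 ± 0.17, adjusted p = 0.959), and its response exceeded that of females by 1.93 ± 0.24 in males (adjusted p = 0.00574).

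Of 12 sorting and uptake genes 2 were higher and 3 lower in injured male tubules (median log2 change -0.24), beside the same 10.6% and 8.43% of all genes. With other settings or a library left out 1 to 8 of the 12 passed. Lrp2, the gene of megalin, had 940 ± 273 CPM in injured and 3400 ± 579 CPM in sham male tubules (SD, n = 3; log2 change -1.86 ± 0.22, adjusted p = 0.000941), and Cubn, that of cubilin, fell by 1.50 ± 0.20. M6pr, a mannose-6-phosphate receptor that carries cathepsins to lysosomes, had a log2 change of -0.31 ± 0.10 (adjusted p = 0.0474) and lost the call in 12 of 14 alternatives, with adjusted p up to 0.344, while Scarb2, the receptor that sorts glucocerebrosidase, rose by 0.89 ± 0.20. The female response of Lrp2 was -0.24 ± 0.22, and the male response was below it by a log2 difference of -1.61 ± 0.31 (adjusted p = 0.0381); that call was lost in 13 of 19 alternatives, with adjusted p up to 0.113, and without injured male replicate 3 the difference was -1.85 ± 0.26.

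Of 32 other hydrolases none rose and 8 fell in injured male tubules, with a median log2 change of -0.36, beside 10.6% and 8.43% of all genes. Among them were Naglu (-0.89 ± 0.15), Neu1 (-0.97 ± 0.17), Gm2a (-0.98 ± 0.18) and Ids (-0.61 ± 0.13), which act on glycans or lipids. Of 22 genes of the lysosomal membrane and its proton pump 4 rose and 2 fell, among them Cd68 (4.49 ± 0.91), Cd63 (0.44 ± 0.11) and the pump subunit Atp6v0a1 (0.46 ± 0.13), higher, and the pump subunit Atp6v1a (-0.78 ± 0.20), lower. Among 11 tested regulators of lysosomes and autophagy Sqstm1 (1.32 ± 0.33) and Map1lc3b (0.94 ± 0.23) rose, both autophagy genes, and Tfeb did not pass (-0.27 ± 0.17, adjusted p = 0.271). Of 6 tested genes of other cathepsins and related proteins, Tinagl1 rose (1.59 ± 0.33) and Tinag fell (-0.44 ± 0.12), and neither is a cathepsin. These counts shift when a library is left out: without injured male replicate 3, 18 hydrolases fell and 1 rose, beside 4350 of 19309 genes that fell, and without any other library 3 to 6 fell. With DESeq2 16 hydrolases passed, and in the 2 male groups alone none did. Of 22 membrane genes 1 to 14 passed over all alternatives. Among the genes just named, the call was lost in 8 of 14 alternatives for Atp6v0a1, in 7 for Tinag, in 6 each for Atp6v1a, Sqstm1 and Map1lc3b and in 5 for Cd63, with adjusted p up to 0.165. In injured female tubules no gene of these 6 lists passed.

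**Figure D5:**
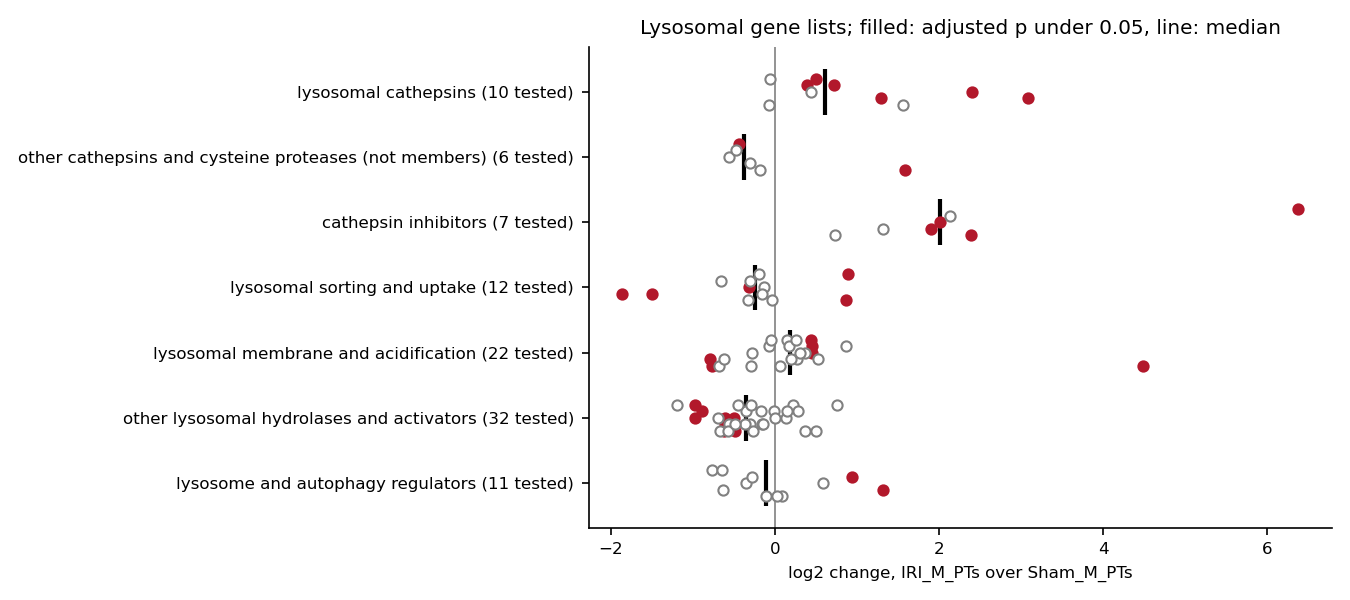
Log2 change with injury in male tubules of each tested gene (points) of the 10 cathepsins and of 6 lists of related genes, with a line at each median (horizontal axis; filled where the adjusted p was under 0.05). The medians are 0.62 for the 10 cathepsins, 2.02 for the inhibitor list and -0.36 for other hydrolases.

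Between sham male and sham female tubules, 7 of the 32 other hydrolases were higher in males and 1 lower, beside 3.24% of all genes higher and 2.56% lower. Galns, which encodes a sulfatase acting on keratan sulfate, differed most (2.91 ± 0.23, adjusted p = 4.36e-05), followed by Psap (1.06 ± 0.12), the precursor of the saposins, Asah1 (1.09 ± 0.14) and Glb1 (0.98 ± 0.16). Ctsf, a cysteine cathepsin outside the 10, was lower in males in sham tubules (-1.08 ± 0.16, adjusted p = 0.00206), in injured tubules (-1.40 ± 0.16, adjusted p = 0.000414) and in injured endothelial isolates (-1.60 ± 0.22, adjusted p = 0.00578). Against sham tubules, sham endothelial isolates had more Cst3 (0.89 ± 0.19), more of the sorting receptor genes Sort1 (1.74 ± 0.25) and Sorl1 (1.66 ± 0.25), and more Arsa (1.23 ± 0.19), a sulfatase gene. With length offsets Sorl1 did not pass (0.98, adjusted p = 0.293).

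The authors' deposited table for injury in male tubules gives log2 changes of 2.96 for Ctsl, 2.03 for Ctsc, 1.33 for Ctsb and 0.73 for Ctsd, with adjusted p from 4.47e-16 for Ctsb to 0.000138 for Ctsc, and lists Ctsz (0.37) and Lgmn (0.48) at adjusted p of 0.0081 and 0.018. The authors' deposited table for injury in male endothelial isolates holds Ctsl (1.93), Ctsc (1.59), Ctsb (0.75) and Ctsd (0.83) below an adjusted p of 0.05, of which the edgeR fit called Ctsl. For females, the authors' deposited table for tubules has no member below 0.05, with Ctsc closest (1.12, adjusted p = 0.0621), and the authors' deposited table for endothelial isolates holds every member near 0 at an adjusted p of 1. In the authors' deposited table of sham male against sham female tubules, Ctsb (-0.66), Ctsz (-0.36) and Lgmn (-0.48) are below 0.05. For injured males against injured females, the authors' deposited table for tubules has Ctsl (2.62), Ctsd (0.52) and Ctsb (0.37, adjusted p = 0.0491) below 0.05, and the authors' deposited table for endothelial isolates has Ctsl (1.61) and Ctsc (1.32, adjusted p = 0.00498); the edgeR fit did not call Ctsb or Ctsc there.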

How the data were processed

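Poly-A RNA was sequenced on a NextSeq instrument, per the labels' protocols. Salmon 0.13.1 and the build GRCm38 are named in the submitters' processing notes. Each deposited quantification file gives the authors' estimated count for every transcript, not normalized, with its TPM, which is scaled within a library, and its effective length. The authors' 8 deposited comparison tables, from DESeq2 per the submitters' processing notes, carry for each gene a log2 fold change, the error of it (a score here) and an adjusted p-value. Many of those log2 changes lie near 0, as shrunken values would; no source states shrinkage.

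Estimated counts were added up by gene, then rounded. The libraries labelled 3 and 3B of sham male tubules were added together, giving 23 from 24. Per the labels' protocols each group had 3 male or 3 female mice. Tubule libraries, endothelial libraries and both together (to compare isolations) were fitted with edgeR 4.0.16 in R 4.3.3, using TMM scaling, filterByExpr (minimum count 10, total 15), 1 coefficient per group, the quasi-likelihood F-test and Benjamini-Hochberg adjustment, with adjusted p under 0.05 as the threshold. An SE was derived as |log2 change| over the square root of F. Residual degrees of freedom were 8, 7 and 15. On simulated data the fit recovered 35% of log2 changes of 1 and 79% of changes of 2 in male tubules, against 8% and 76% in male endothelial isolates. The changed genes were drawn from genes over a wide range of levels, with the spread set by the trend across genes. These shares therefore do not give the rate for the members. Likeness of pattern is Pearson's r of log2 CPM (prior count 2) over protein-coding genes averaging 5 CPM or more.

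The 10 genes, the 6 lists of related genes and the 11 marker lists were chosen with earlier results of these data known. All 10 members were named in each comparison, with up to 4 called genes of each related list by smallest adjusted p, the genes Cst3, Cstb, Lrp2 and Tfeb, and the 3 nearest genes of a member. Alternatives were DESeq2 1.42.0, RLE scaling, no filter, length offsets, the compared groups alone, a replicate block, library 3 or 3B alone and each library left out. Promoter windows came from RefSeq (GRCm38.p6) and gene positions from GENCODE M21.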

Additional observations from a re-analysis of the deposited data

Results flagged for a closer look

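The injury responses of Ctsl and Ctsb in tubules were marked because a test of the difference between the sexes passed: the male log2 response minus the female one was 3.26 for Ctsl and 1.01 for Ctsb. The part of the extent of injury in this difference was not tested.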

How the results depend on the processing

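Of 1434 alternative values of 96 reported log2 changes, 1249 kept their direction and side of the threshold, 146 lost the call, 34 gained it and 5 changed sign. The sign changes were of Ctsh in male tubules (0.0045 without a filter, 0.0013 without sham male replicate 3 and 0.15 without injured male replicate 3, in a range of -0.19 to 0.15 with a library left out), Tfeb in male tubules (0.076 with length offsets) and Ctss in sham endothelial isolates against sham tubules (-0.25 without sham male endothelial replicate 3, in a range of -0.25 to 1.15). The cause was not tested.

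The number of members called in male tubules (6) was 1 in a fit of the compared groups alone, which has fewer samples, and 3 to 6 with a library left out. In female tubules (0) it was 2 in the groups alone and 0 with any library left out. For sham males against sham females in tubules (2) it was 1 without a filter, 1 with length offsets, 1 with library 3B alone, 4 in the groups alone and 0 to 4 with a library left out. For injured males against injured females in tubules (2) it was 3 with RLE scaling, 3 with DESeq2, 1 in the groups alone and 1 to 4 with a library left out. For the tubule response of males minus females (2) it was 1 with length offsets, 4 with DESeq2 and 0 to 5 with a library left out. In male endothelial isolates (1) it was 2 without a filter, 4 with DESeq2, 0 in the groups alone and 0 to 3 with a library left out. For injured males against injured females in endothelial isolates (1) it was 2 without a filter, 2 with DESeq2, 0 in the groups alone and 0 to 1 with a library left out. For injured endothelial isolates against injured tubules (0) it was 1 with DESeq2, 1 in the groups alone and 0 to 1 with a library left out. Counts of all genes called moved too. With injury they were 3488 in male tubules (154 in the groups alone, 953 to 8203 with a library left out), 2 in female tubules (0 to 1167 over other settings), 172 in male endothelial isolates (2 to 1217 over other settings) and 0 in female ones (0 to 33 over other settings). With a library left out the counts were 0 to 501 in female tubules, 0 to 703 in male endothelial isolates and 0 to 1 in female ones. For males against females they were 1065 in sham tubules (822 to 2051), 4271 in injured tubules (1710 to 5932), 157 for the tubule response (54 to 1535), 86 in sham endothelial isolates (58 to 388) and 298 in injured ones (132 to 1177), with ranges over other settings. With a library left out the counts were, in the same order, 550 to 2626, 1884 to 8522, 19 to 5892, 25 to 218 and 77 to 386. For injured endothelial isolates against tubules they were 995 (592 to 1895 over other settings, 399 to 1622 with a library left out). In TPM rescaled over genes, 78 of 80 ranks of members within groups were kept.

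Deviations from the group mean were correlated between same-numbered libraries. The range was -0.0665 to 0.176 over 18 pairs in tubules and -0.282 to 0.248 over 15 in endothelial isolates. For the 11 title numbers that a tubule and an endothelial library share it was -0.43 to 0.575. With so few libraries per group, these values cannot decide whether equal numbers pair libraries. With the replicate block the members called were 1 in sham males against sham females, 1 in the tubule response of males minus females, and 0 in male endothelial isolates and in injured males against injured females there. The 5 members' calls lost under the block had log2 changes of 0.50 for Lgmn in male tubules, -0.55 for Lgmn between sham sexes, 1.01 for Ctsb in the tubule response, and 1.99 and 1.64 for Ctsl in these 2 endothelial comparisons, against 0.50, -0.55, 1.01, 2.04 and 1.72 without it.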
